A study of Homo sapiens with 18 samples.

Results

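QKI (quaking) belongs to the STAR family of RNA-binding proteins, and the subject here is its binding to RNA from its own gene. The members are the peaks that overlap QKI, the plus-strand interval 163835675 to 163999628 of chromosome 6 on hg19 (164 kb), in 12 deposited peak lists. They number 486 of 889743 listed regions, of which 467 came from the lists of 9 single libraries and 19 from the merged lists of the 3 days.

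The assay was eCLIP, which uses ultraviolet light to fix proteins to the RNA they touch, pulls down a chosen protein by immunoprecipitation (IP) and sequences the RNA fragments that come with it, next to an input of matched size. The human embryonic stem cell line HUES6 was used, with 3 anti-QKI IP libraries at each of 3 days of cardiomyocyte differentiation. Day 0 cells were pluripotent and had been plated overnight in growth medium. Day 4 cells, labelled cardiac progenitors, had received 1.5 uM CHIR with 1.5 ng/mL BMP4 and then 100 nM C59, and day 8 cells, labelled cardiomyocytes, came from the same protocol after beating had been seen. Between day 4 and day 8 C59 was added again, at a concentration that the labels write as 100 mM, in a different unit from the first addition. All groups were unmodified cells of 1 line, crosslinked at 400 mJ/cm2. Separate cultures for the libraries of 1 day are not named in the labels, and p-values therefore reflect only the spread between these libraries, which may be technical. The lists hold neither RNA levels nor reads, so the labelled cell types were not checked against marker RNAs, and depth is unknown.

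QKI proteins bind ACUAAY-like motifs in introns, where they steer the use of neighbouring exons, and in 3′ untranslated regions, where they affect RNA stability and translation. The gene makes a nuclear isoform and mainly cytoplasmic isoforms that differ in their C-terminal ends, through alternative splicing and alternative 3′ ends at the end of the gene. QKI proteins are known to bind QKI RNA and to influence which of these isoforms is made. Exons, introns and the alternative 3′ ends were not assigned here, because no hg19 annotation was used. Positions are therefore given on hg19 and as distances from the start and the end of the interval above.

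QKI binding to its own RNA was concentrated near the end of the gene, with a strong isolated site far upstream. By the authors' values for each peak, which serve here to describe and filter peaks, a passing peak had a fold over input of 4 or more and a p of 0.001 or less. Of the 467 library clusters 117 passed, and merging those that overlapped or touched gave 34 footprints covering 2820 nt, 1.72% of the gene. The last 20 kb, 12.2% of its length, held 78 of the 117 passing peaks and 20 of the 34 footprints. Of the clusters in that stretch 57.4% passed, against 20.7% in the 38.9 kb upstream of it. Passing peaks had a median width of 70 nt (range 10 to 194). No library listed a cluster on the opposite strand of the gene, although 46.7% to 48.6% of each library's clusters lay on the minus strand. No library listed a plus-strand cluster within 50 kb beyond either end of the gene or in its last 2.67 kb.

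**Figure D1:**
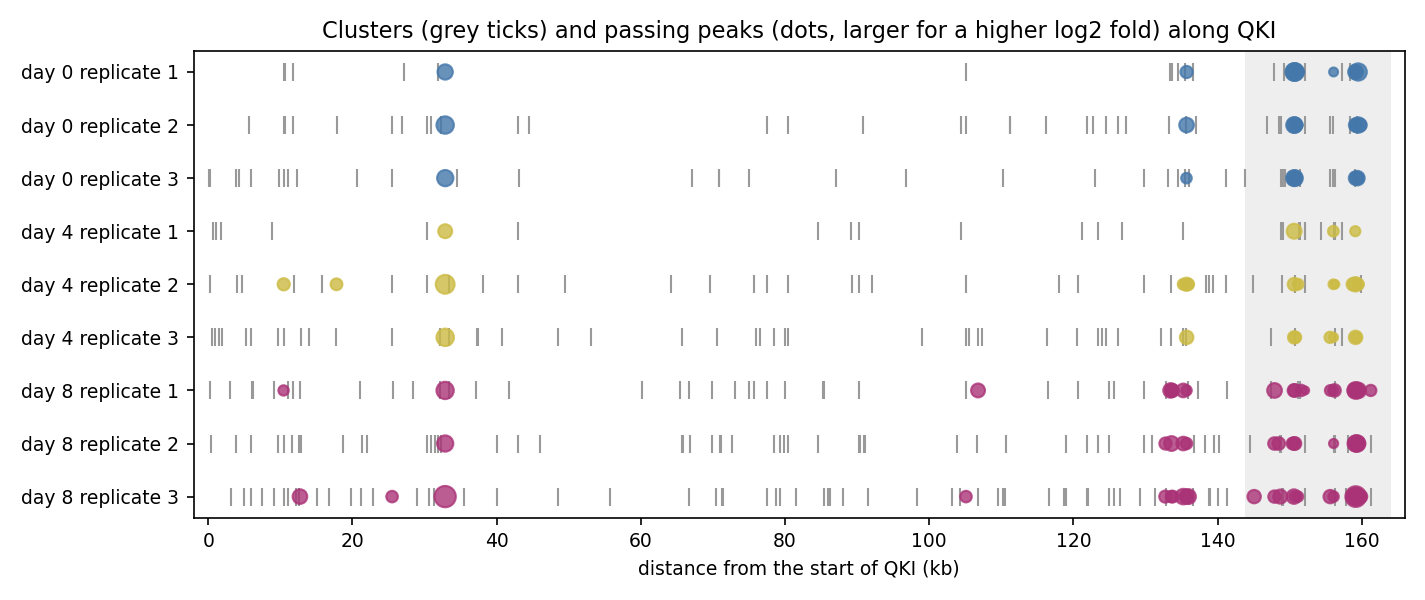
Clusters along QKI in each of the 9 IP libraries, by distance from the start of the gene (kb). Grey ticks are clusters that did not pass, dots are passing peaks with a size that grows with the authors' log2 fold over input, and the shaded part is the last 20 kb, which holds 78 of the 117 passing peaks.

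The upstream site lay at 163868488 to 163868589, 32.8 kb from the gene start, and it passed in 9 of 9 libraries. The authors' log2 folds of IP over input were 5.18, 6.32 and 5.71 in the day 0 libraries, 4.51, 7.11 and 6.35 at day 4, and 6.27, 5.70 and 8.54 at day 8. It was the QKI peak with the highest fold in 6 of these 9 libraries. Each of the 3 merged lists held it as a reproducible peak, ranked 1470 of 7778 by fold at day 0, 212 of 947 at day 4 and 109 of 1576 at day 8. Ranks from lists of different lengths are not comparable between the days. Downstream of it, 72.1 kb (44.0% of the gene) held 100 clusters over the 9 libraries and no passing peak. The first 10.4 kb of the gene likewise held 35 clusters and none that passed. Both stretches were chosen as parts of the gene without a passing peak, so the absence of passing peaks in them is no separate result. The median log2 folds of their clusters were 1.69 and 1.17.

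The other footprints that passed in 9 of 9 libraries were a pair near the gene end, separated by 8.23 kb. The first, at 163986205 to 163986438, ended 13.2 kb before the gene end. Its log2 folds were 6.53, 5.51 and 5.53 at day 0, 5.02, 4.0 and 3.82 at day 4, and 3.93, 4.04 and 4.81 at day 8. The second, at 163994672 to 163994876, ended 4.75 kb before the gene end. Its log2 folds were 4.88, 4.37 and 4.33 at day 0, 2.83, 4.74 and 4.29 at day 4, and 5.97, 5.64 and 8.20 at day 8. Where several peaks of a library lay in a footprint, the highest fold is given.

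The order of this pair within a library differed between the days. In the 3 day 0 libraries the downstream site had the lower fold, by -1.65, -1.14 and -1.20 on the log2 scale (downstream minus upstream site). The day 4 libraries were split, with -2.20 in replicate 1 and 0.74 and 0.47 in replicates 2 and 3. In the 3 day 8 libraries the downstream site had the higher fold, by 2.04, 1.60 and 3.39. The day 8 and day 0 differences thus did not overlap. Both values come from the same library, and each fold is relative to input at its own position, but the inputs were not analysed here. Whether RNA levels at the pair of positions changed between the days was not tested. The pair was singled out after its values were seen, so no test is given.

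**Figure D2:**
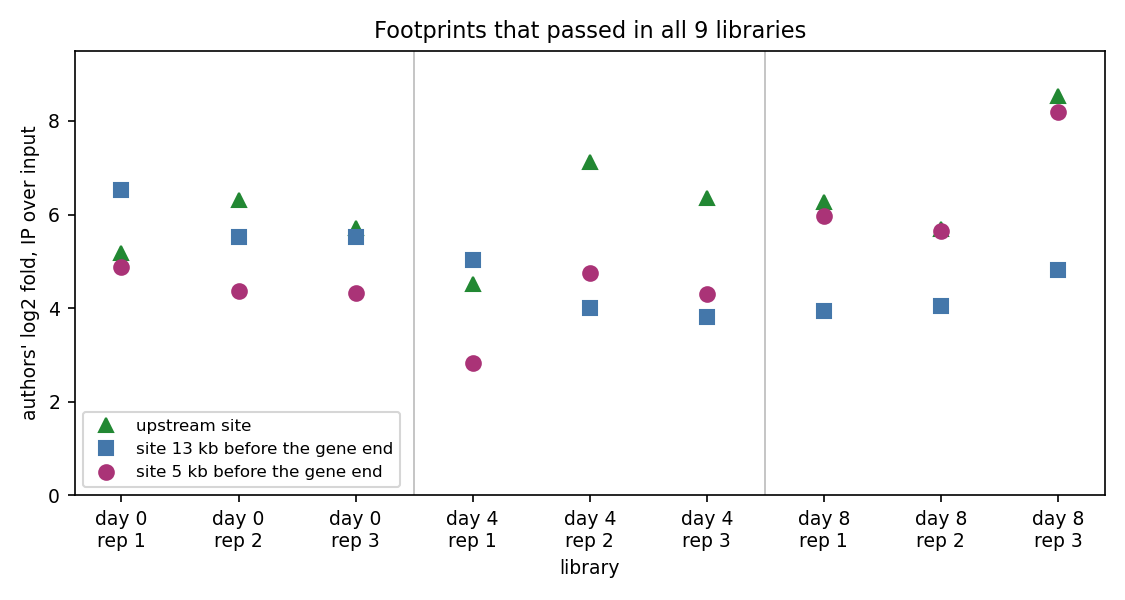
Authors' log2 fold of IP over input (vertical axis) in each of the 9 libraries for the 3 footprints that passed in all of them. The site 4.75 kb before the gene end (circles) lies below the site 13.2 kb before it (squares) in every day 0 library and above it in every day 8 library, and the upstream site (triangles) ranges from 4.51 to 8.54.

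Day 8 libraries held more QKI peaks than the libraries of either earlier day. Passing peaks numbered 10, 10 and 8 in the day 0 libraries, 4, 13 and 8 at day 4, and 23, 16 and 25 at day 8. Every day 8 library was above every other library, while day 4 and day 0 overlapped. The means were 9.33 ± 1.15 at day 0, 8.33 ± 4.51 at day 4 and 21.3 ± 4.73 at day 8 (SD, n = 3). An exact permutation test of the 3 days over 280 partitions gave p = 0.0286. In pairs, the two-sided exact permutation p for day 8 was 0.1 both against day 0 and against day 4 (adjusted 0.15), and 3 libraries a day cannot give a smaller one. For day 4 against day 0 it was 0.8. Without any single day 0 library, or without day 4 replicate 1 or 3, the 3-day exact p was between 0.0536 and 0.0679, above the threshold of 0.05.

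All listed clusters in QKI, at any enrichment, were also most numerous at day 8. They numbered 26, 46 and 44 at day 0, 28, 46 and 53 at day 4, and 64, 72 and 88 at day 8 (3-day exact permutation p = 0.0214). Day 8 was again above all other libraries. The whole lists ran the other way, averaging 156660 ± 47433 clusters in a day 0 library, 77625 ± 19282 in a day 4 library and 58863 ± 5606 in a day 8 library (SD, n = 3). Of the QKI clusters, 26.1% ± 10.8 passed in day 0 libraries, 19.2% ± 7.85 in day 4 libraries and 28.9% ± 6.87 in day 8 libraries, and these ranges overlapped (3-day exact permutation p = 0.386).

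**Figure D3:**
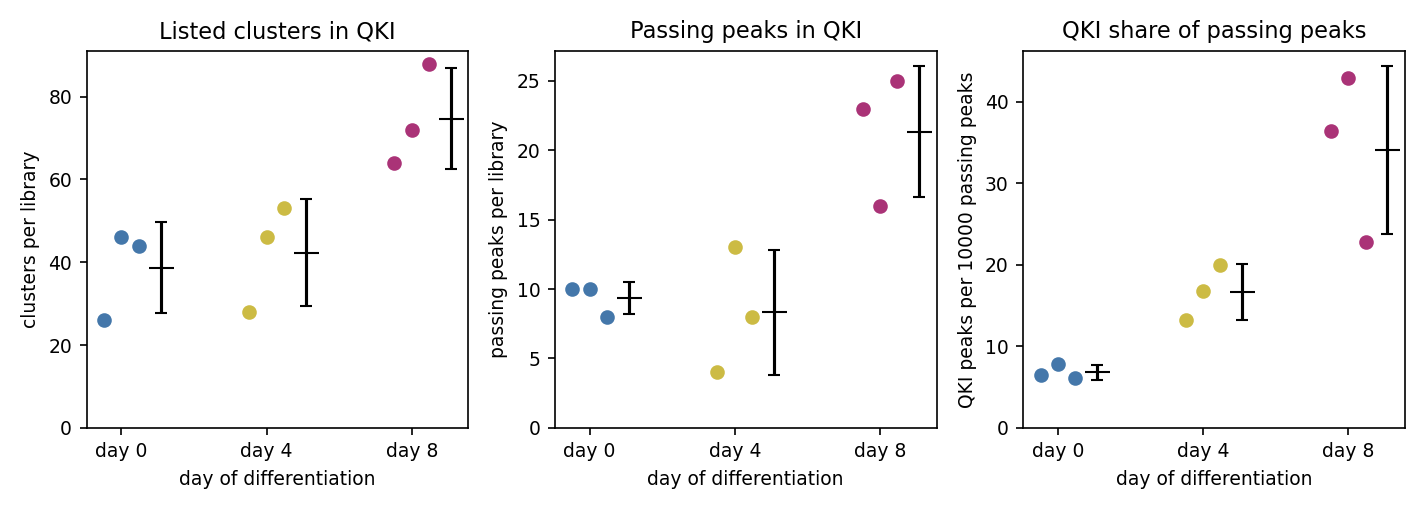
Listed clusters in QKI, passing peaks in QKI, and QKI peaks per 10000 passing peaks of the library, by day. Each dot is a library and the bar with whiskers is the mean ± SD of the 3 libraries; in all 3 panels the day 8 libraries lie above every library of day 0 and day 4.

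Relative to each library's own list, QKI held a larger share of the passing peaks at each later day. Per 10000 passing peaks, QKI held 6.45, 7.88 and 6.12 in the day 0 libraries, 13.2, 16.7 and 20.005 at day 4, and 36.4, 42.9 and 22.8 at day 8. The 3 days did not overlap, and the 3-day exact permutation p was 0.00357, the smallest that 280 partitions can give. The lists themselves held 15508, 12695 and 13069 passing peaks at day 0, 3030, 7775 and 3999 at day 4, and 6320, 3726 and 10966 at day 8. Day 4 and day 0 libraries held similar numbers of QKI peaks, so the larger share at day 4 went with shorter lists and not with more QKI peaks. Among the day 8 libraries the longest list had the lowest share and the shortest list the highest, an order that the libraries of day 4 and of day 0 did not follow.

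The shares were then tested beside those of other bound loci. The test was limma on the log2 share with 0.5 peaks added, over QKI and 154 other loci with at least 10 reproducible peaks. P-values were Benjamini-Hochberg adjusted over all 155. QKI was counted over its whole interval, while every other locus spanned only its joined reproducible peaks. Joined in that way, QKI would have formed 2 loci. Its call and its rank therefore set unlike units side by side, and the effect of this was not tested. The threshold of 10 reproducible peaks was applied to the 3 merged lists together. Of these the day 0 list was the longest, with 7778 entries against 947 for day 4 and 1576 for day 8. A locus bound mainly in day 0 cells could therefore enter through that list alone. The percentages of loci called in each direction and the QKI rank may partly reflect this choice, whose effect was not tested. For day 8 against day 0, limma called 16.1% of the loci higher and 20.6% lower. The QKI share was higher at day 8 by 2.24 ± 0.43 on the log2 scale (SE, limma adjusted p = 1.31e-06), and 7 other loci had a larger difference. That SE came from a trend over the loci and not from the spread of QKI between its own libraries. For day 4 against day 0, where 14.8% of loci were called higher and 18.1% lower, the QKI difference was 1.30 ± 0.43 (limma adjusted p = 0.0108), with 17 other loci above it. For day 8 against day 4, where 8.39% were called in each direction, it was 0.93 ± 0.43 and did not pass (limma adjusted p = 0.105). The median locus moved by 0.08, 0.14 and -0.24 in these comparisons.

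The day 4 call was lost with equal numbers of peaks and without some single libraries. With the 3030 strongest passing peaks of each library, the day 4 against day 0 difference was 0.039 (limma adjusted p = 0.951) while the median locus moved by -0.55. That setting changes the list length and the strength of the peaks kept together, and their separate parts were not tested. Its p-values also rest partly on each locus's own spread, unlike those of the main fit. In that setting the day 8 against day 0 difference was 1.55 (limma adjusted p = 0.0169, 16 loci higher and 50 lower, against 25 and 32 with all passing peaks). The day 8 against day 4 difference then passed, at 1.51 (limma adjusted p = 0.0441). The day 4 against day 0 call was also lost without day 0 replicate 1 or 3 or day 4 replicate 3 (limma adjusted p = 0.0638, 0.0695 and 0.0565), and the day 8 against day 4 difference passed without day 8 replicate 3 (0.0197). The level of QKI RNA at each day was not measured here, so more binding per RNA and more QKI RNA cannot be told apart in these shares, nor can more cells with QKI RNA and more RNA per cell.

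**Figure D4:**
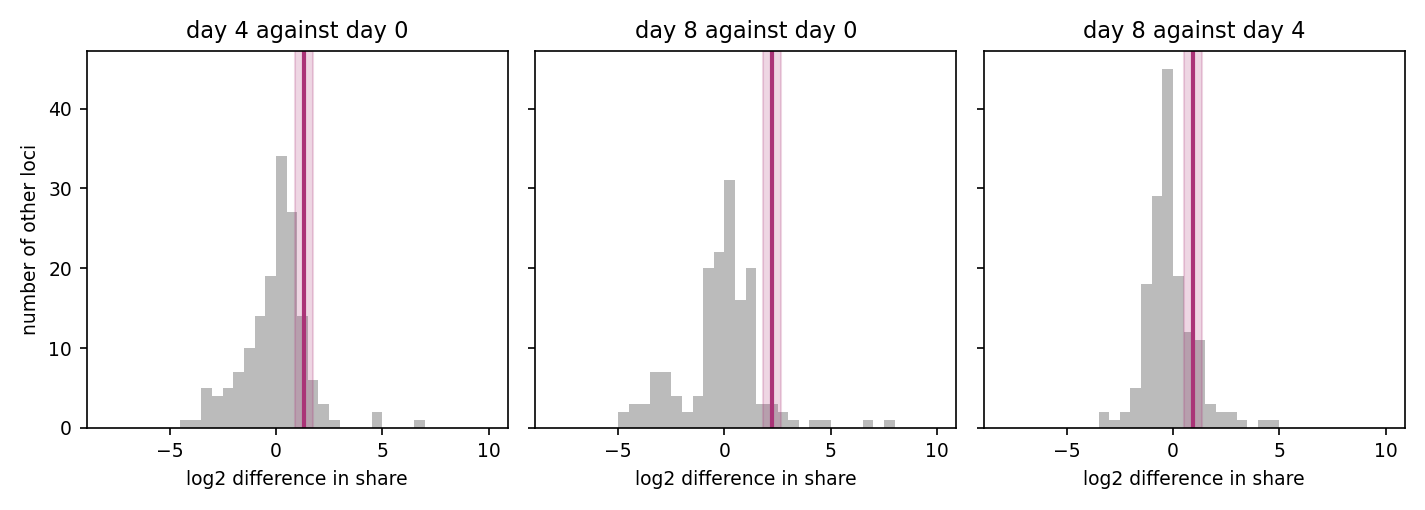
Distribution of the log2 difference in share of passing peaks over the 154 other loci (grey bars, number of loci) for each pair of days. The line marks QKI and the shaded band its SE: 1.30, 2.24 and 0.93 for day 4 against day 0, day 8 against day 0 and day 8 against day 4.

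The added day 8 peaks were spread over several stretches of the gene. Of the 34 footprints, 10 passed in at least 1 day 0 library, 16 at day 4 and 30 at day 8. No footprint passed at day 0 alone, 3 passed at day 4 alone and 17 at day 8 alone. Of those 17, 13 passed in a single library, 2 in 2 libraries and 2 in 3, so most single positions were not repeated. Regions of other genes were not counted by the day on which alone they passed. Nor were they counted for passing in 3 of 3 libraries, as given next for QKI. Whether either pattern is particular to QKI was therefore not tested. Footprints that passed in 3 of 3 libraries numbered 7 at day 0, 4 at day 4 and 10 at day 8. Between libraries of the same day, the shared part of the nucleotides covered by passing QKI peaks (Jaccard index) averaged 0.606 at day 0, 0.387 at day 4 and 0.453 at day 8. Between days it averaged 0.381 for day 4 with day 0. Day 8 libraries shared 0.341 on average with day 0 libraries and 0.263 with day 4 libraries. Unequal coverage lowers the highest value this index can take. Passing QKI peaks covered 718 nt on average in a day 0 library, 601 nt at day 4 and 1456 nt at day 8.

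Among the stretches with passing peaks only at day 8, the one with the most was 1.12 kb long. It lay at 163968396 to 163969519, 132.7 kb from the gene start, and the merged day 8 list held no reproducible peak in it. It held 4 footprints, with 4, 2 and 3 passing peaks in the day 8 libraries and none in any day 4 or day 0 library. Clusters of any enrichment numbered 11 there over the 3 day 8 libraries, against 2 over those of day 4 and 4 over those of day 0. Within it, the footprint at 163969223 to 163969326 passed in all 3 day 8 libraries, with log2 folds of 3.91, 4.95 and 3.46. Day 4 replicate 3 and day 0 replicate 1 had a cluster there that did not pass (log2 folds 1.44 and 1.74), and the other libraries of those days had none.

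About 1.35 kb further downstream a second stretch of 775 nt, at 163970874 to 163971648, held a footprint bound at every day and, upstream of it, one with no cluster at day 0. The upstream footprint, at 163970874 to 163970947, passed in all 3 day 8 libraries (log2 folds 4.41, 4.36 and 5.33) and in day 4 replicate 2 (3.14), and the other day 4 libraries had clusters with log2 folds of 3.70 and 4.02 whose p did not pass. No day 0 library had a cluster at that position, and the merged day 8 list held a reproducible peak there. The footprint 357 nt downstream, at 163971305 to 163971416, passed in 8 of 9 libraries. Its log2 folds were 3.74, 4.87 and 2.99 at day 0, 4.18 and 4.35 in day 4 replicates 2 and 3, and 2.91, 3.36 and 4.62 at day 8, and day 4 replicate 1 had no cluster there.

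A further position bound at day 8 lay in the last 20 kb. The footprint at 163983520 to 163983609, which ended 16.0 kb before the gene end, passed in all 3 day 8 libraries with log2 folds of 4.91, 3.88 and 3.80. No day 4 library had a cluster there, and among day 0 libraries replicate 1 had a cluster that did not pass (2.91). The merged day 8 list held no reproducible peak at this footprint. In all, 3 QKI footprints (8.82% of 34) were bound in 3 of 3 day 8 libraries and 0 of 3 day 0 libraries, against 1.68% of the 29356 bound regions of all genes. Against day 4 there were 2 (5.88%), the footprints at 163969223 and at 163983520, against 1.78% of all regions. No QKI footprint was bound in 3 of 3 day 4 libraries and 0 of 3 of day 0, or 0 of 3 of day 8, where the shares of all regions were 0.262% and 0.194%. The regions of all genes were merged from all 9 libraries, of which the day 0 libraries held the most passing peaks. Of the 34 QKI footprints 30 passed at day 8 and 10 at day 0, so the shares have unlike bases. Counts this small are a description, and footprints of the same RNA are not independent.

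In the opposite direction, 1 QKI footprint was bound at day 0 and not at day 8. It lay at 163986453 to 163986521, only 14 nt downstream of the site 13.2 kb before the gene end that passed in every library. It passed in the 3 day 0 libraries with log2 folds of 4.78, 2.93 and 3.58. At day 4 it passed in replicate 3 (3.31) and had no cluster in replicates 1 and 2. At day 8 no library had a cluster of any enrichment there, although the neighbouring site passed in all 3. Of all bound regions 9.45% were bound in 3 of 3 day 0 libraries and 0 of 3 day 8 libraries, against 2.94% of the QKI footprints. None of them was bound in 3 of 3 day 0 libraries and 0 of 3 day 4 libraries, against 9.11% of all regions. These shares have the same unlike bases as those above.

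**Figure D5:**
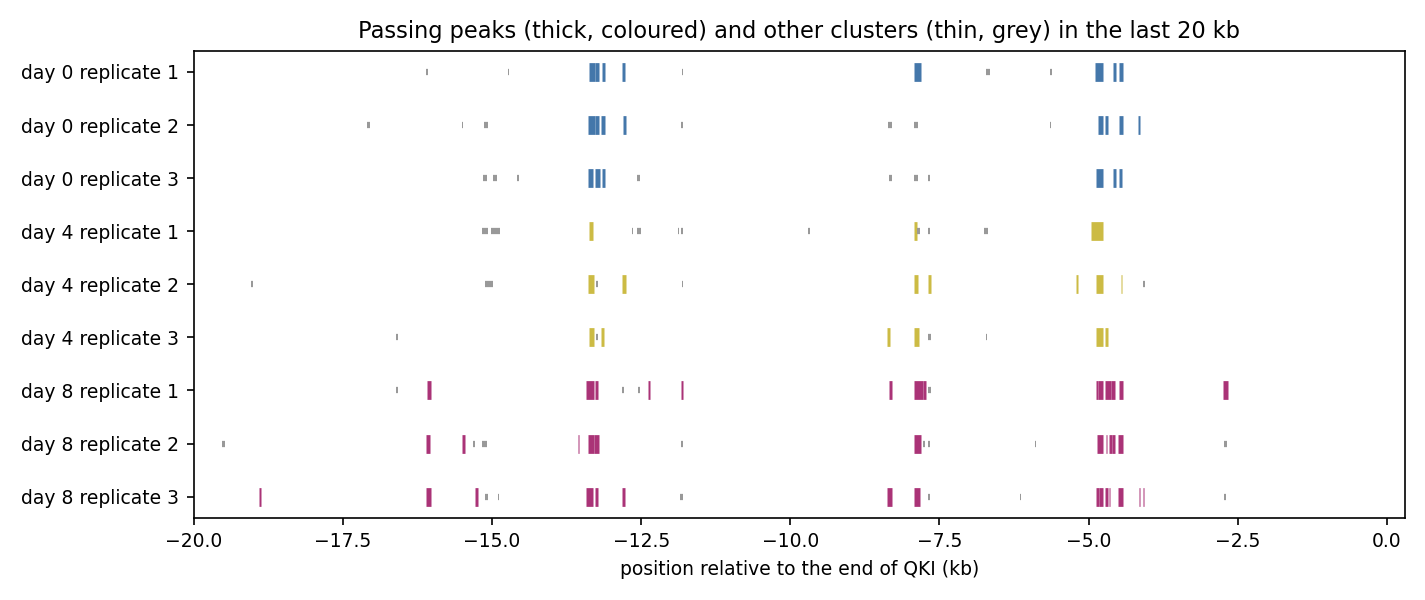
Passing peaks (thick, coloured by day) and other clusters (thin, grey) in the last 20 kb of QKI, by position relative to the gene end (kb), 1 row per library. The block between 5.20 and 4.07 kb before the gene end holds 10, 6 and 17 passing peaks over the libraries of day 0, day 4 and day 8, and the footprint that ends 13.1 kb before the gene end is present in the day 0 rows and absent from the day 8 rows.

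Near the gene end, the densest binding was a block of 1.14 kb at 163994424 to 163995562, between 5.20 and 4.07 kb before the gene end. It held 6 footprints and 33 of the 117 passing peaks. The day 0 libraries had 3, 4 and 3 passing peaks in it, the day 4 libraries 1, 3 and 2, and the day 8 libraries 5, 5 and 7. By peaks, day 8 was above both other days in every library, and day 4 and day 0 overlapped. Some of these peaks were pieces of the same footprint, such as 163994744 to 163994792 and 163994793 to 163994869 in day 8 replicate 1. Counted as footprints, the day 8 and day 0 libraries overlapped. The footprint at 163995456 to 163995490, for example, passed in day 0 replicate 2 and not in day 8 replicates 1 and 2. All 17 clusters listed there at day 8 passed. Besides the site that passed in 9 libraries, it held 2 neighbouring footprints with passing peaks in every day 0 and day 8 library. Both were mostly missing at day 4.

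The first of these neighbours, at 163994906 to 163995084, held passing peaks in all 3 libraries of day 0 (log2 folds 3.44, 3.51 and 4.82) and of day 8 (4.97, 5.98 and 5.88), and in day 4 replicate 3 (2.93). Its day 0 peaks lay at 163995029 to 163995084 in replicate 1, 163994907 to 163994954 in replicate 2 and 163995035 to 163995084 in replicate 3. The replicate 2 peak thus overlapped neither of the others, and the merged day 0 list held no reproducible peak in this footprint. The second, at 163995119 to 163995213, also passed in all 3 libraries of day 0 (6.23, 5.29 and 3.44) and of day 8 (5.37, 4.65 and 5.18), and in day 4 replicate 2 (3.31). The other day 4 libraries had no cluster of any enrichment at either position. The gaps between the 3 neighbouring footprints were 29 and 34 nt.

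Between the 2 gene-end sites, the footprint at 163991697 to 163991909 was bound weakly at the later days. It passed in 3 of 3 libraries at day 8 (log2 folds 3.91, 2.40 and 2.99) and at day 4 (3.08, 2.64 and 2.37), and in day 0 replicate 1 (2.32). The other day 0 libraries had clusters at 1.70 and 2.03 that missed the threshold. The last footprint of the gene, at 163996875 to 163996958, passed in day 8 replicate 1 only (3.29).

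The part of QKI binding that lay in the last 20 kb did not differ detectably between the days. Passing peaks there were 8 of 10, 8 of 10 and 6 of 8 in the day 0 libraries, 3 of 4, 7 of 13 and 6 of 8 at day 4, and 14 of 23, 11 of 16 and 15 of 25 at day 8. The means were 78.3% ± 2.89 at day 0, 67.9% ± 12.2 at day 4 and 63.2% ± 4.82 at day 8 (SD, n = 3). Every day 8 library was below every day 0 library, but the 3-day exact permutation p was 0.136, and day 8 against day 0 gave the smallest possible exact p of 0.1 (adjusted 0.3). Without day 4 replicate 2 the 3-day exact p was 0.025. The order of the days depended on the length of the stretch. For the last 10 kb the means were 39.2%, 46.2% and 37.5% at day 0, day 4 and day 8 (3-day exact permutation p = 0.118). For the last 40 kb they were 89.2%, 79.8% and 88.2% (3-day exact permutation p = 0.136). By 5 kb windows from the gene start, the window at 155 to 160 kb held 11, 11 and 23 passing peaks over the libraries of day 0, day 4 and day 8, and the window at 150 to 155 kb held 11, 5 and 10. Next came the windows at 30 to 35 kb, which holds the upstream site, and at 135 to 140 kb at day 0 (3 peaks in each), the window at 135 to 140 kb at day 4 (4), and the window at 130 to 135 kb at day 8 (9).

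The authors' merged lists, each made from all libraries of a day and so without replicates, held 7 reproducible QKI peaks at day 0 (0.0900% of that list), 3 at day 4 (0.317%) and 9 at day 8 (0.571%). All 3 day 4 peaks, the upstream site and the gene-end pair, overlapped reproducible peaks of both other days. Of the day 8 peaks 6 of 9 (66.7%) overlapped a day 0 peak and 4 of 9 (44.4%) a day 4 peak. Of the day 0 peaks 3 of 7 (42.9%) overlapped a day 4 peak and 5 of 7 (71.4%) a day 8 peak. The merged lists held 7778, 947 and 1576 entries at day 0, day 4 and day 8, and a longer list offers more peaks to overlap. The same shares over all entries were not computed, so these overlaps are no trait of QKI in particular.

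Within each merged list the leading QKI peaks differed. At day 0 the peaks with the highest log2 folds were at 163986256 to 163986359 (5.90), at the upstream site (5.74), at 163986360 to 163986438 (5.70), at 163995131 to 163995212 (5.05) and at 163994783 to 163994865 (4.66). At day 4 the upstream site led (5.99), followed by 163986251 to 163986338 (4.33) and 163994747 to 163994866 (3.92). At day 8 the upstream site (6.85) and the peak at 163994793 to 163994869 (6.85) ranked 109 and 110 of 1576. They were followed by 163994906 to 163995003 (5.70), 163995133 to 163995207 (5.12) and 163994744 to 163994792 (4.98). The site 13.2 kb before the gene end, which led at day 0, came 7th of the 9 QKI peaks at day 8 (4.21). Each of the 19 reproducible QKI peaks was covered in part by passing peaks of all 3 libraries of its day.

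The 5 loci whose log2 shares followed QKI most closely over the 9 libraries were found by Pearson correlation, given as a description. They lay at chromosome 2, minus strand, 220418592 to 220419170 (r = 0.986), chromosome 8, minus strand, 62583616 to 62588378 (0.976), chromosome 2, minus strand, 179585006 to 179623624 (0.970), chromosome 5, plus strand, 82794248 to 82823576 (0.957), and chromosome X, plus strand, 107912090 to 107922919 (0.951). The median over all 154 loci was 0.188. The first of them held 2, 1 and 1 passing peaks in the day 0 libraries, 1, 3 and 2 at day 4, and 9, 7 and 8 at day 8. The 9 points of each correlation share the libraries and their list lengths and fall into 3 days.

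Some clusters lay close to the threshold on either side. Just inside it were clusters with a log2 fold of 2.00 (163987788 to 163987826, day 8 replicate 1) and with a −log10 p of 3.003 (163980724 to 163980760, day 8 replicate 3). Just outside lay a cluster with a log2 fold of 1.79 whose p was low enough (163984603 to 163984762, day 4 replicate 1), and clusters with −log10 p of 2.96 and 2.95 (163991267 to 163991328 in day 0 replicate 2 and 163991696 to 163991774 in day 0 replicate 3). Of the 467 clusters, 134 reached the fold but not the p, 1 reached the p but not the fold, and 215 reached neither.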

How the data were processed

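The deposited files were peak lists from eCLIP of QKI, 9 of single IP libraries and 3 merged, 1 per day. For every peak the authors deposited a log2 enrichment (IP over input) with its −log10 p-value, which stops at 400. The build is hg19 and values are normalized to input, per the file headers. The merged lists are named for 4-fold enrichment and for IDR over 3 libraries. STAR, cutadapt and SAMtools are listed in the submitters' processing notes, with no version; the peak caller and duplicate filter are not given in the sources used here. Lists hold clusters above input only. The 9 input libraries were not analysed here.

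Day and replicate were read from each sample's title. Overlaps were of at least 1 nt on the same strand. Loci were reproducible peaks joined within 20 kb outside QKI, and log2((peaks + 0.5)/(passing peaks + 1) × 10000) was fitted with limma 3.58.1 (lmFit, eBayes with a variance trend) in R 4.3.3 over all 9 libraries. In the main fit the prior degrees of freedom were infinite, so standard errors come from the trend over loci and not from QKI's own libraries. These degrees of freedom were 2.39 with equal numbers of peaks, 213 at 8-fold enrichment and 211 without day 8 replicate 2. In those fits the standard errors also draw on each locus's own libraries. The fit was also run on simulated counts, whose outcome is not given here and is not used as support. Stretches are footprints joined within 1000 nt, a distance chosen after the positions were seen. Single values were compared by exact permutation tests with Python 3.11.15. Confidence intervals were not used, and precision is limited by 3 libraries a day and by unknown depth. The gene, lists and tests were chosen with earlier results of these data known. Named positions were, by rule, the 5 leading reproducible peaks a day, footprints passing in 9 of 9 libraries or in 3 of 3 of a day and 0 of 3 of another, the 3 densest 5 kb windows, the 5 most correlated loci and the peaks at the threshold; other positions were named after their values were seen.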

Additional observations from a re-analysis of the deposited data

How the results depend on the processing

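The 3-day difference in the QKI share of passing peaks passed under every setting tried (exact p between 0.00357 and 0.0357 with 1 library left out), as did the day 8 against day 0 difference in limma (log2 difference 2.04 to 2.51 with 1 library left out). The 3-day exact p for the number of QKI peaks ranged from 0.0286 to 0.0679 with 1 library left out, and that for the part in the last 20 kb from 0.025 to 0.268. The limma log2 difference with 1 library left out ranged from 1.17 to 1.43 for day 4 against day 0 and from 0.74 to 1.20 for day 8 against day 4. With equal numbers of peaks these were 0.039 and 1.51, losing the first call and gaining the second; the cause was not tested.

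Small footprint counts moved most. Footprints bound in 3 of 3 libraries of day 0 and absent at day 4 numbered 2 when 50% of the footprint had to be covered and 1 at 8-fold enrichment, against 0; those of day 8 absent at day 4 numbered 4 with 50% covered and 1 when no cluster of any enrichment was allowed, against 2. Those of day 8 absent at day 0 numbered 1 when no cluster was allowed, against 3. Those of day 0 absent at day 8 numbered 0 at 8-fold and 0 with equal numbers of peaks, against 1, and those of day 4 absent at day 0 numbered 1 with equal numbers, against 0. With 1 library left out the ranges were 0 to 1 for day 4 absent at day 0, 0 to 2 for day 0 absent at day 4, 3 to 5 for day 8 absent at day 0, 1 to 1 for day 0 absent at day 8, 2 to 4 for day 8 absent at day 4, and 0 to 0 for day 4 absent at day 8.

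Libraries with the same replicate number did not deviate together (correlations over loci from -0.132 to 0.194). With the replicate number as a block the limma differences for day 4 against day 0, day 8 against day 0 and day 8 against day 4 kept their values of 1.30, 2.24 and 0.93, and no call changed (limma adjusted p = 0.0300, 2.87e-05 and 0.175). A limma fit without the variance trend, added after the data were seen, changed no call. With at least 3 reproducible peaks per locus, 1021 loci were tested, 140 higher and 287 lower at day 8 than at day 0, and with at least 20, 36 loci were tested, 9 higher and 5 lower.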
